A study of Rattus norvegicus with 18 samples.

Results

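The subunits of the mitochondrial oxidative phosphorylation machinery that are encoded in the nucleus were followed in cortex of the kidney from Zucker diabetic fatty (ZDF) rats. Members were all gene rows of the deposited table whose symbols follow the naming of subunits of respiratory complexes I to V or cytochrome c, chosen by symbol alone. This gave 81 of 18420 gene rows: 35 for complex I, 4 for complex II, 9 for complex III, 14 for complex IV, 18 for complex V and cytochrome c itself (Cycs). Those of complex V include Atp5if1, an inhibitor of ATP synthase, and Atp5s (Dmac2l in RefSeq), which fit the naming without being subunits. Of these, 79 passed the filter on low values (at least 10 normalised reads in at least 6 libraries). The 2 that did not were Cox6a2, with 0 to 7.36 normalised reads over the 18 libraries, and Atp5pb, with 0 to 4.98. Uqcrb.1, Ndufv3.1 and Cox6b1.1 are second rows of a symbol and were kept as rows of their own.

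RNA of whole cortex was sequenced in 18 libraries, 6 in each of 3 groups. Healthy controls were lean ZDF fa/+ rats, which carry a working copy of the leptin receptor gene and were labelled non-diabetic. Disease rats were ZDF fa/fa, without a working leptin receptor, and were labelled diabetic. Rats of the third group were ZDF fa/fa, also labelled diabetic, and had Roux-en-Y gastric bypass (RYGB), an operation that reduces the stomach to a small pouch and joins it to a lower stretch of the small intestine. All groups share the ZDF background, and the labels give neither age, sex nor a batch. Disease and healthy control differ in genotype, body size and diabetes together, which cannot be told apart here. Nothing in the labels states 1 animal per library, and p-values therefore cover only the variation among the libraries at hand.

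Complex I takes electrons from NADH and complex II takes them from succinate. Complex III passes them through the mobile carrier cytochrome c to complex IV, which reduces oxygen, and complex V uses the resulting proton gradient to make ATP. Proximal tubule and thick ascending limb cells, which do most of the salt reabsorption in the cortex, are rich in mitochondria and draw nearly all of their ATP from this chain. The genes for the subunits lie scattered over the chromosomes, and nuclear respiratory factors, estrogen-related receptors and their coactivators are known regulators of many of them.

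The 250 bases before the start site are shown for 3 members on which the results below turn, the called members Cycs and Uqcrh and the ATP synthase gene Atp5mc2. Sequences are from RefSeq, build GRCr8, 5′ to 3′ on the strand of the gene, which is the minus strand for all 3. Cycs lies at chr4:80984768-80985017, Uqcrh at chr5:134790883-134791132 and Atp5mc2 at chr7:135678219-135678468. Capitals mark a match to a searched motif.
Cycs: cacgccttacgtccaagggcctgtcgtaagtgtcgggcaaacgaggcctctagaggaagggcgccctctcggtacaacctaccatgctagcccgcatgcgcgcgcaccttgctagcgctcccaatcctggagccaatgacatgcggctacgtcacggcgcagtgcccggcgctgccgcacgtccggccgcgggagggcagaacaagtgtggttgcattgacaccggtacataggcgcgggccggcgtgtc
Uqcrh: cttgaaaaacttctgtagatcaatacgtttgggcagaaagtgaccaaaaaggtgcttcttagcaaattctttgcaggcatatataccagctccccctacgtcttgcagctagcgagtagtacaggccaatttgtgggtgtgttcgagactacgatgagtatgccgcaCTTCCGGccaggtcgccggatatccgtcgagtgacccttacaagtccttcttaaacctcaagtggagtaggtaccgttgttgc
Atp5mc2: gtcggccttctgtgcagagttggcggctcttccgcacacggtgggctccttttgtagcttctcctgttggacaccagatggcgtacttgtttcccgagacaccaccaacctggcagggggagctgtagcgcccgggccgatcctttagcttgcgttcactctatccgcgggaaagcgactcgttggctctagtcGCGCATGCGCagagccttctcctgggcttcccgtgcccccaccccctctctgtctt
The capitals in Uqcrh match the reverse complement of the ETS motif CCGGAAG, the core bound by GABP (nuclear respiratory factor 2). Those in Atp5mc2 match the palindromic motif of nuclear respiratory factor 1 (NRF1) on both strands. No exact match to the motifs searched was found in these letters of Cycs. They do hold a stretch that differs from the NRF1 motif at 1 letter. Only exact matches were counted, so the search cannot show that Cycs lacks a site for NRF1.

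RefSeq held a window of 250 bases before to 50 after the start for 68 of the 81 members, 4 of them through another symbol. Both strands were searched for the NRF1 palindrome, ETS (CCGGAAG), YY1 (ATGGCGG) and the estrogen-related receptor (ERR, TCAAGGTCA). The NRF1 motif was in 20.6% of member windows, against 5.67% of 21851 windows of protein-coding genes. The ETS letters were in 26.5% against 10.7%, the YY1 letters in 20.6% against 6.0%, and the ERR letters in 2.94% against 0.37%. Of the 68 windows, 36 held at least 1 of the 4 motifs. Among members named below, Atp5mc3 held both NRF1 and ERR letters, Ndufa11 and Ndufa12 held NRF1, Cox5b and Cox8a held ETS, and Ndufs7 held YY1. A match is a description of the letters and not a bound site, and a missing match does not show that a site is absent.

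Libraries held between 8116638 and 42713246 reads in genes, of which the members together took 2.58 to 3.37%. Values are reads divided by the size factor of the library (normalised reads). Proximal tubule markers such as Slc34a1 (40156 to 122436 normalised reads over the 18 libraries) and the thick ascending limb marker Umod (12920 to 88918) were abundant in every library. The 2 libraries with the fewest reads in genes were healthy control 4 (8116638) and disease 1 (8157977). In bulk RNA, fewer cells of a type cannot be told from less RNA per cell. Values are not divided by transcript length, so levels are compared between libraries and not between genes.

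Members did not move as a block with the group. For each library, the median over tested members of the log2 deviation from each member's mean over the 18 libraries was taken. Among disease libraries this median was 0.27 in library 1, 0.04 in library 2, 0.24 in library 3 and 0.31 in library 4, but -0.16 in library 5 and -0.20 in library 6. In disease 4, 75 of 79 members were above their mean, and in disease 5 only 22. Healthy control libraries lay between -0.15 and 0.04. RYGB libraries lay between -0.19 and 0.16, with RYGB 6 the highest. Libraries of the disease group therefore held both the highest and the lowest medians of all 18. The SD of these medians was 0.08 in healthy control, 0.23 in disease and 0.14 in RYGB (n = 6 each), and whether the spreads differ was not tested. The members took 2.66 to 3.04% of reads in healthy control libraries, 2.70 to 3.37% in disease libraries and 2.58 to 2.97% in RYGB libraries.

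**Figure D1:**
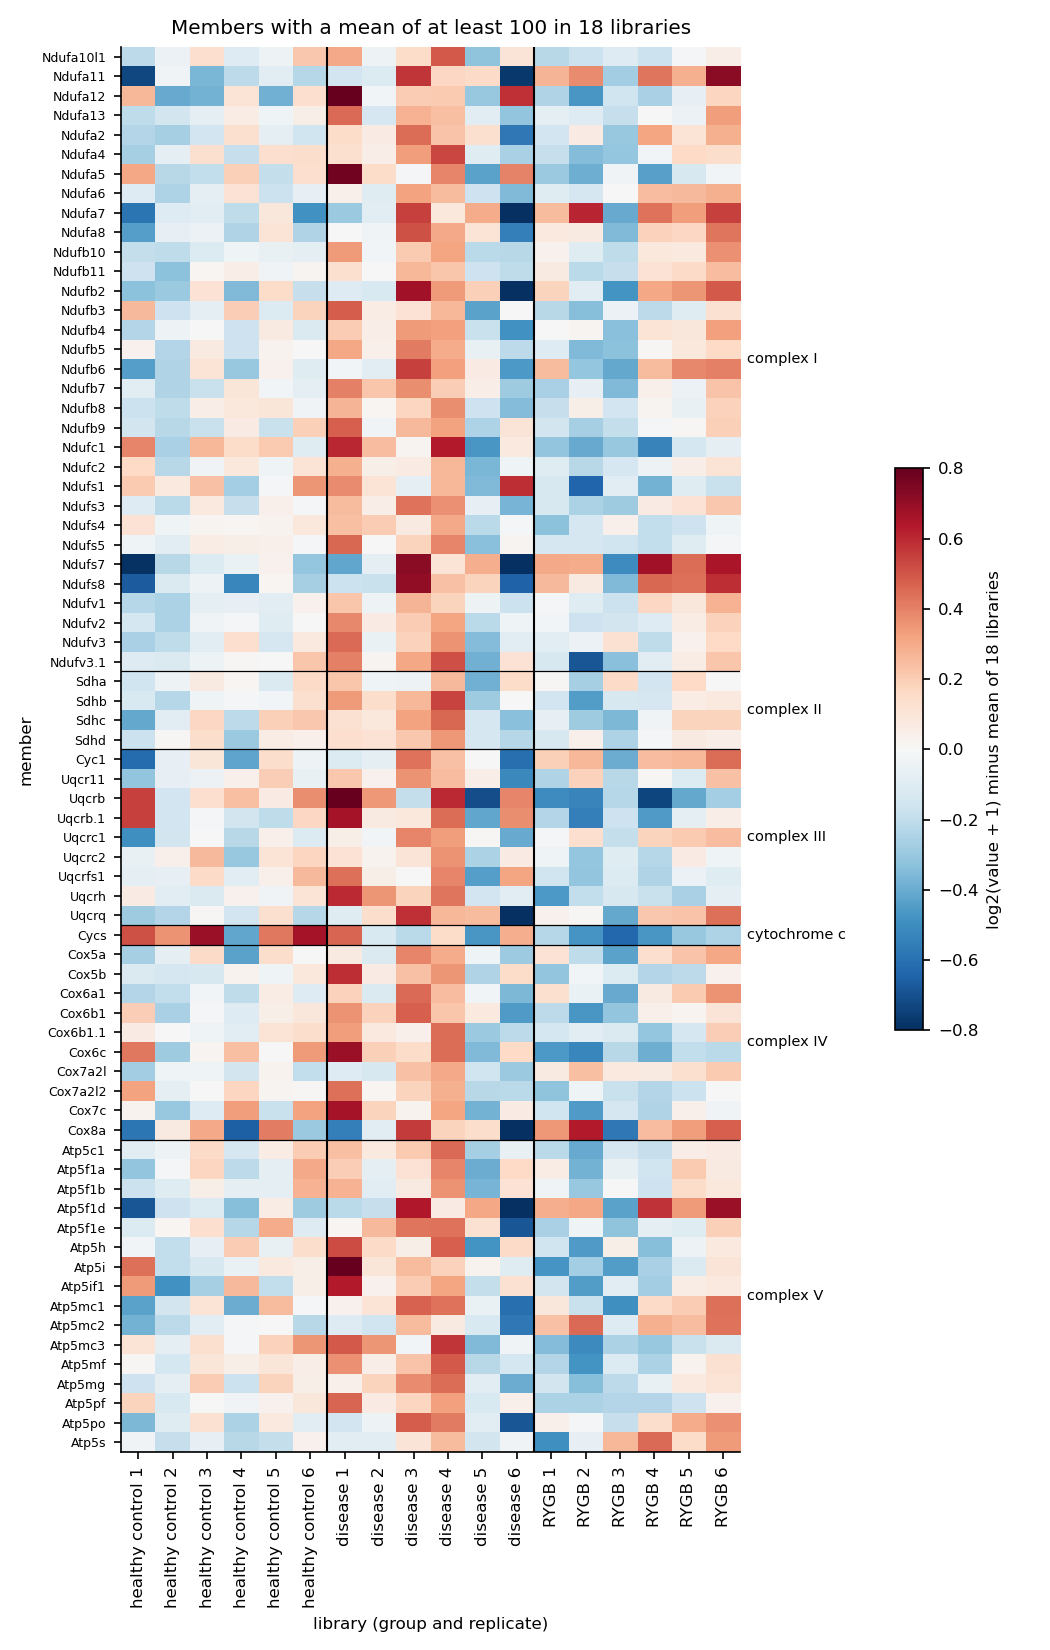
Each cell is log2(value + 1) of 1 member in 1 library minus the mean of that member over the 18 libraries, for members with a mean of at least 100 normalised reads (1 is not shown), with colours ending at -0.8 and 0.8. Disease libraries 1, 3 and 4 are mostly red and disease libraries 5 and 6 mostly blue, while Cycs is red in 5 of the 6 healthy control libraries and blue in all 6 RYGB libraries.

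The same split of the disease libraries appeared in each complex. For complex I the library medians of disease ran from -0.21 to 0.29, for complex II from -0.21 to 0.40, for complex III from -0.15 to 0.36, for complex IV from -0.29 to 0.33 and for complex V from -0.14 to 0.39. Each of these ranges covered the whole healthy control range or all but its lowest library. By group median, complex III was the complex in which RYGB libraries sat lowest, at -0.17, with 4 of the 6 libraries between -0.20 and -0.16. Complex V was close, with a median of -0.14 and libraries from -0.27 to 0.11. RYGB 5 and RYGB 6 had the highest complex III medians of their group, up to 0.06.

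**Figure D2:**
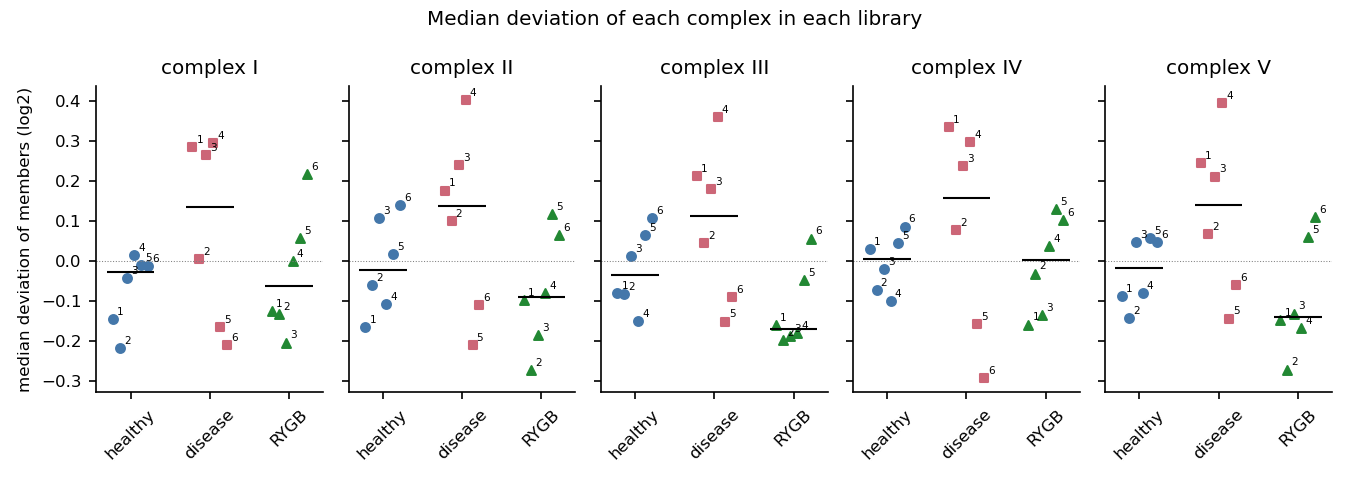
Points are the median log2 deviation of the tested members of a complex in 1 library (numbers give the replicate), and bars are medians over the 6 libraries of a group. In all 5 panels disease libraries 5 and 6 lie below 0 and disease libraries 1, 3 and 4 above it.

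Disease was first compared with healthy control, which asks how the cortex of the diabetic rats differs from that of lean rats. None of the 79 tested members was called by limma (adjusted p below 0.05 by Benjamini-Hochberg over 13988 genes), nor by edgeR or DESeq2 on the recovered reads. Of all genes tested, 1.61% were called in this comparison, 0.579% higher and 1.03% lower. Without adjustment, 3 members had a p below 0.05, all higher in disease, against 5.19% of all genes higher and 5.89% lower. The fitted fold change was above 0 for 75 of the 79 members, while 50.4% of all genes were above 0 and 49.6% below. The median member was 0.13 higher on the log2 scale (9.49%), against 0.0016 for all genes. With healthy control 4 and disease 1 both left out, the median was 0.09 and 66 of 79 members were above 0. Members vary together between libraries, so these counts are a description and not a test.

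By complex, the median fold change in disease was 0.17 for complex I (34 of 35 above 0), 0.11 for complex II (4 of 4), 0.13 for complex III (9 of 9), 0.09 for complex IV (11 of 13) and 0.10 for complex V (17 of 17). Groups overlapped for every member, while 0.458% of all genes were apart and higher and 0.786% apart and lower. Ndufa12, an accessory subunit of complex I, had 1180, 1440 and 1874 normalised reads in healthy control (lowest, median, highest) and 1264, 1798 and 3077 in disease, with a fold change of 0.39 ± 0.18 (SE, adjusted p = 0.434). Its highest disease values were in libraries 1 and 6, although disease 6 was low for most members.

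Other members of low unadjusted p leaned the same way without passing the test. Cox5b, a nuclear-encoded subunit of complex IV, had 6633 to 7738 normalised reads in healthy control and 6168 to 10977 in disease (fold change 0.24 ± 0.12, adjusted p = 0.452). Above all healthy libraries lay 4 disease libraries, and 1 lay below them. Ndufb7, in the membrane arm of complex I, gave 0.24 ± 0.12 (adjusted p = 0.456) with the same 4 and 1. Sdhb, the iron-sulfur subunit of complex II, gave 0.22 ± 0.13 (adjusted p = 0.570) and its flavin-bearing partner Sdha 0.04 ± 0.12 (adjusted p = 0.941).

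Cycs was the only member with a mean of at least 100 whose fold change was below 0. It had 6290, 11577 and 13559 normalised reads in healthy control and 6081, 8499 and 11598 in disease, with a fold change of -0.35 ± 0.18 (adjusted p = 0.468). Healthy control 4, the library with the fewest reads, was the low one at 6290, while the other 5 lay between 10751 and 13559. With healthy control 4 and disease 1 both left out, the fold change was -0.60 and passed the test (adjusted p = 0.0263). That exclusion was chosen after seeing the data, and disease 1 held the highest disease value, 11598. Cycs was called in 0 of the fits by limma that left out 1 library (adjusted p 0.0747 to 0.743). Whether depth plays a part in the low value of healthy control 4 was not tested.

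RYGB was then compared with disease, which asks how the cortex of diabetic rats with bypass differed from that of those without. The operation and any change in feeding, body weight or diabetes that came with it cannot be told apart here. This comparison shares the disease libraries with the one before, so a split of the disease libraries enters both. The members that fell were 2 accessory subunits, Uqcrh of complex III and Cox6c of complex IV, and none rose. Of all genes 3.95% were called here (2.1% lower and 1.84% higher), so 2 of 79 members is a share near the background. Groups overlapped for every member, while 1.12% of all genes were apart and higher and 1.47% apart and lower. Without adjustment 21 members had a p below 0.05 and lower values, against 9.54% of all genes, and 1 (Atp5mc2) had higher values, against 11.2%.

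Uqcrh encodes the hinge protein of complex III, which helps cytochrome c dock to the cytochrome subunit. It had 4692, 5102 and 5468 normalised reads in healthy control, 4572, 6122 and 7696 in disease and 3691, 4456 and 4805 in RYGB (lowest, median, highest). Below all disease libraries lay 4 RYGB libraries, and the groups overlapped through disease 5 and 6. Uqcrh fell by 0.44 ± 0.12 on the log2 scale (26.2% lower, adjusted p = 0.0398).
Cox6c encodes a small membrane subunit of cytochrome c oxidase. Its values were 8379, 11174 and 13666 in healthy control, 7978, 11483 and 16429 in disease and 7103, 8247 and 8896 in RYGB. Only disease 5 lay inside the RYGB range, and 3 RYGB libraries lay below all disease libraries. Cox6c fell by 0.55 ± 0.15 (31.5% lower, adjusted p = 0.0449).

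Both calls sat close to the threshold. Neither held with the compared groups fitted alone (adjusted p = 0.0923 for Uqcrh and 0.0663 for Cox6c) or with the replicate number as a block (0.0765 and 0.0544). Of 18 fits that each left out 1 library, Uqcrh was called in 7 and Cox6c in 5. For Uqcrh the adjusted p was 0.103, 0.0888 and 0.0748 without disease 1, 2 or 4, 0.0508, 0.0509 and 0.0503 without healthy control 2, 5 or 6, and 0.103, 0.0667, 0.0735, 0.0775 and 0.0541 without RYGB 1, 2, 4, 5 or 6. For Cox6c it was 0.117, 0.0820, 0.0501, 0.0810 and 0.0663 without disease 1, 2, 3, 4 or 6, 0.0560, 0.0558 and 0.0540 without healthy control 3, 5 or 6, and 0.102, 0.0939, 0.0961, 0.0658 and 0.0653 without RYGB 1, 2, 4, 5 or 6. Without disease 5, the adjusted p was 0.0136 for Uqcrh and 0.00925 for Cox6c, and 13 members were called, all lower in RYGB. The share of all genes called in that fit is not given here, so the count cannot be read as particular to the members.

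**Figure D3:**
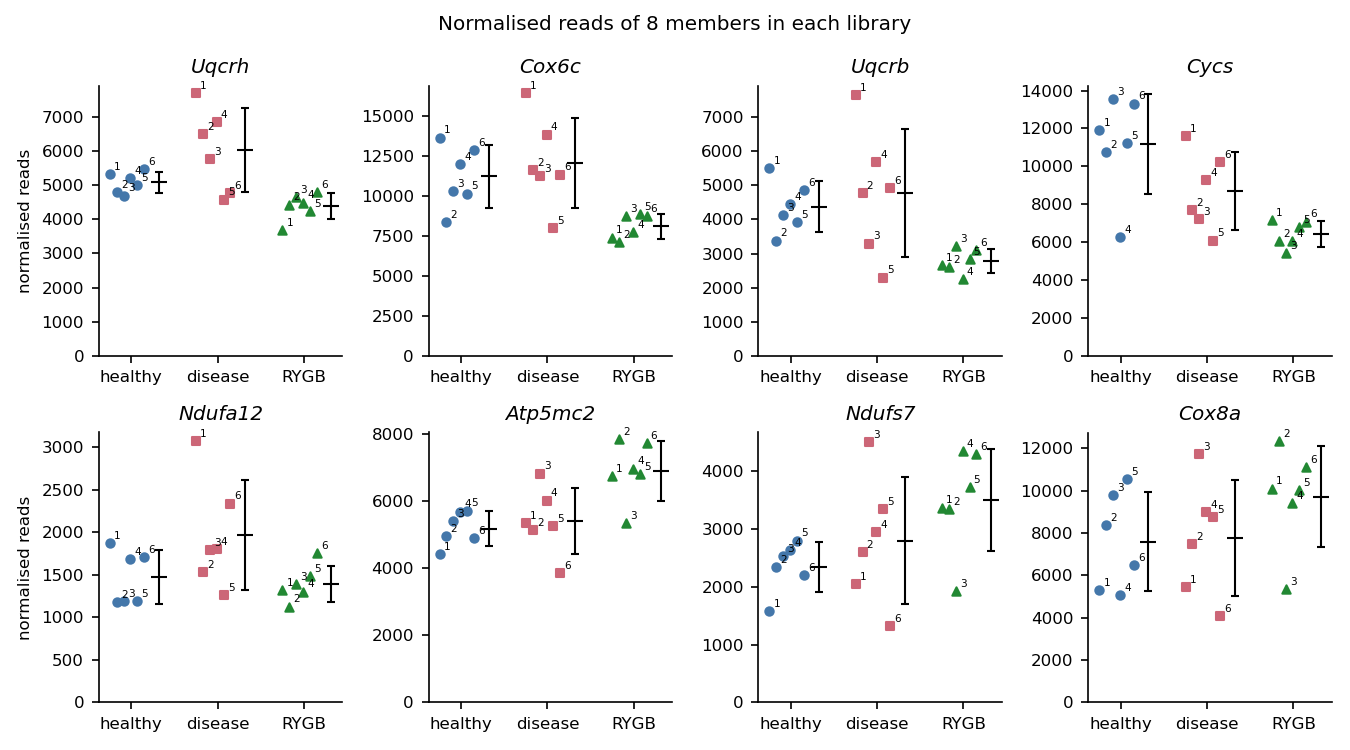
Points are normalised reads of 8 members in each library (numbers give the replicate), and bars are the mean ± SD of a group (n = 6). Uqcrh and Cox6c sit lower in RYGB than in most disease libraries, Cycs in RYGB is below all healthy control libraries but number 4, and 5 of the 6 RYGB values of Atp5mc2 lie above all healthy control libraries.

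The remaining members mostly leaned lower after RYGB. The fold change was below 0 for 60 of 79 members, against 50.1% of all genes (49.9% above 0), and the median member was -0.16 (-10.7%), against -0.00087 for all genes. The complex medians were -0.15 for complex I, -0.13 for complex II, -0.18 for complex III, -0.16 for complex IV and -0.20 for complex V, and Cycs was at -0.41 ± 0.18 (adjusted p = 0.193).

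Just short of the threshold, Atp5pf (coupling factor 6, in the peripheral stalk of ATP synthase) had 5419, 6415 and 8162 normalised reads in disease and 4952, 5024 and 6059 in RYGB. Below all disease libraries lay 5 RYGB libraries, and RYGB 6 was apart from its group at 6059. Its fold change was -0.34 ± 0.10 (adjusted p = 0.0595). Uqcrb, a subunit near the ubiquinone site of complex III, had the most negative fold change of the 79 members, with 2297, 4850 and 7639 in disease and 2259, 2740 and 3211 in RYGB (-0.69 ± 0.21, adjusted p = 0.0667). The spread in disease was wide, with library 1 at 7639 and library 5 at 2297.
Atp5i (subunit e of ATP synthase, -0.45 ± 0.14, adjusted p = 0.0784) and Atp5mc3 (1 of 3 genes for the c-ring subunit, -0.45 ± 0.14, adjusted p = 0.0833) followed. A second c-ring gene leaned the opposite way. Atp5mc2 had 3843, 5292 and 6811 in disease and 5338, 6880 and 7836 in RYGB, with 3 RYGB libraries above all disease libraries (0.37 ± 0.13, adjusted p = 0.107). The third, Atp5mc1, gave -0.03 ± 0.18 (adjusted p = 0.941). The mature c subunit is the same protein from all 3 genes.

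No core catalytic subunit was called. For complex I, Ndufs1 gave -0.40 ± 0.15 (adjusted p = 0.138) and the NADH-site subunit Ndufv1 -0.03 ± 0.10 (adjusted p = 0.899). The Rieske protein Uqcrfs1 gave -0.29 ± 0.13 (adjusted p = 0.215), while Cyc1, the cytochrome subunit of complex III, gave 0.19 ± 0.17 (adjusted p = 0.548). The catalytic α and β subunits of ATP synthase, Atp5f1a and Atp5f1b, were each at -0.11 ± 0.16 (adjusted p = 0.734 and 0.737).

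Markers of tubule segments also moved between these groups. Of 4 thick ascending limb markers tested, 2 fell in disease (Umod and Cldn10) and 3 rose after RYGB (Umod, Cldn19 and Cldn10). Their summed level was 75566 to 100061 normalised reads in healthy control, 24424 to 73100 in disease and 46608 to 120813 in RYGB, and none was at 0 in any library. Of 9 proximal tubule markers, Miox rose after RYGB against disease and Gatm was lower in RYGB than in healthy control, with summed levels of 236822 to 388992, 169930 to 362358 and 249446 to 404162, again with none at 0. Of these 9, 6 were above 0 in RYGB against disease (median 0.40) and 7 in RYGB against healthy control (median 0.44), and Gatm was at -1.42 in the latter. All 4 thick ascending limb markers were below 0 in disease and above 0 in RYGB against disease, opposite to the median member. Of 3 intercalated cell markers, 3 were above 0 in disease and 2 in RYGB against disease (median 0.12), with none called. Principal cell and distal convoluted tubule markers went the same way as the median member. The 3 principal cell markers were above 0 in disease and below 0 in RYGB against disease, where Aqp3, a water channel, fell (-0.62, adjusted p = 0.0444). The 2 distal convoluted tubule markers had the same signs with none called, and summed to 11929 to 49218 normalised reads in healthy control, 29998 to 60104 in disease and 14712 to 52489 in RYGB.
Markers of cells outside the tubule were also called by limma. The macrophage marker Mrc1 (-1.75), the fibroblast marker Col1a1 (-1.51) and the fat marker Adipoq (-0.82) fell in RYGB against disease. Their lists were mixed there. Above 0 were 3 of 6 macrophage markers, 1 of 2 fibroblast and smooth muscle markers (0.12) and 1 of 3 fat markers (1.51). In disease the endothelial marker Vwf (-1.16) and the lymphocyte marker Gzma (-2.08) fell. All 5 endothelial markers were below 0 there, while 1 of 3 lymphocyte markers was above 0, at 1.19. Against healthy control, RYGB was lower in Vwf (-1.29), the endothelial marker Cdh5 (-0.54) and Mrc1 (-1.10), and higher in the erythroid marker Alas2 (2.98). Of 6 macrophage markers 4 were above 0 in that comparison, and of 5 endothelial markers 1 was. The part of these cells and segments in the values of the members was not tested.

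**Figure D4:**
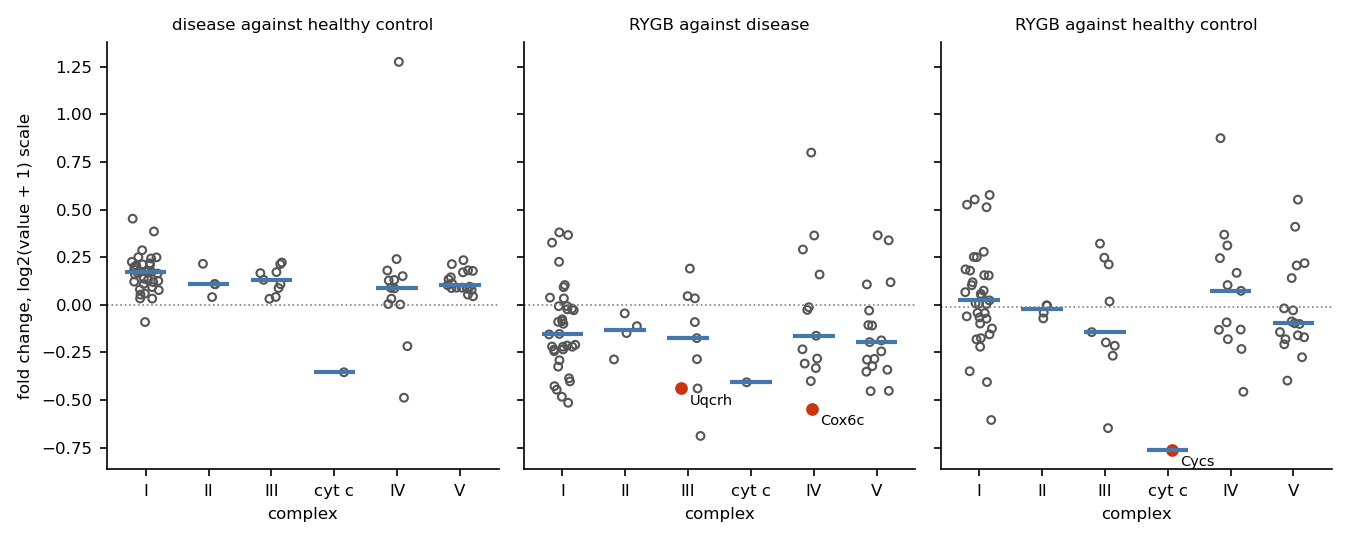
Each circle is the fitted fold change of 1 tested member on the log2(value + 1) scale, the blue bars are medians by complex, the dotted line is the median of all genes tested, and filled red points passed the test. Most circles are above the line in disease and below it in RYGB against disease, and in RYGB against healthy control they fall on both sides.

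Last, RYGB was compared with healthy control, which asks how far the operated diabetic rats differed from lean ones. These groups differ in genotype, diabetes and operation together, which cannot be told apart. Here 4.44% of all genes were called (1.98% lower and 2.46% higher). The single member that fell was Cycs, the soluble carrier between complexes III and IV, and none rose. Cycs had 6290, 11577 and 13559 normalised reads in healthy control and 5434, 6437 and 7159 in RYGB. All 6 RYGB libraries lay below 5 of the healthy control libraries, and only healthy control 4 overlapped with them. The fall was 0.76 ± 0.18 on the log2 scale (41.0% lower, adjusted p = 0.0209). Cycs was called in 15 of 18 fits that left out 1 library, and the adjusted p was 0.0577, 0.0511 and 0.0544 without healthy control 1, 3 or 6 and 0.000626 without healthy control 4. The median of Cycs in disease, 8499, lay between those of the other groups, with 3 RYGB libraries below all disease libraries.

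The rest of the members fell on both sides. The fold change was above 0 for 37 and below 0 for 42 of the 79 members (48.4% of all genes above and 51.6% below), and the median was -0.02, against -0.01 for all genes. Without adjustment, 7 members were higher and 7 lower at a p below 0.05, against 14.4% and 11.8% of all genes. Groups did not overlap for 3 members, none of them called. Uqcrb had 3380 to 5495 normalised reads in healthy control and 2259 to 3211 in RYGB (-0.65 ± 0.21, adjusted p = 0.0713). Atp5mc3 had 18021 to 24202 and 13318 to 17528 (-0.40 ± 0.14, adjusted p = 0.101). Cox7a2l, which helps join complexes III and IV into supercomplexes, had 1840 to 2270 and 2348 to 2639 (0.25 ± 0.10, adjusted p = 0.135). Among all genes 1.82% were apart and higher, and 1.4% apart and lower.

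Members of 1 complex leaned in opposite directions. In complex I, the accessory subunit Ndufa11 ran from 1702 to 2758 in healthy control and from 2327 to 4653 in RYGB, with 5 RYGB libraries above all healthy ones (0.58 ± 0.19, adjusted p = 0.0726). The iron-sulfur subunits Ndufs7 (0.55 ± 0.24, adjusted p = 0.157) and Ndufs8 (0.51 ± 0.19, adjusted p = 0.113) leaned the same way, each with 5 RYGB libraries above all healthy ones, while the iron-sulfur subunit Ndufs1 gave -0.35 ± 0.15 (adjusted p = 0.156) and Ndufc1 -0.41 ± 0.16 (adjusted p = 0.122).
In complex III, Cyc1 gave 0.32 ± 0.17 (adjusted p = 0.233), opposite to Uqcrb. In complex IV, Cox8a gave 0.37 ± 0.25 (adjusted p = 0.342) and Cox6c -0.46 ± 0.15 (adjusted p = 0.0773). In complex V, Atp5f1d of the central stalk gave 0.55 ± 0.21 (adjusted p = 0.115) and Atp5mc2 0.41 ± 0.13 (adjusted p = 0.0619), opposite to Atp5mc3. Complex II, whose 4 subunits lay between -0.07 and -0.0026 on the log2 scale, was the exception.

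Between libraries of 1 group, most members varied together and a few went against them. Over the 72 members with a mean of at least 1000 normalised reads, deviations from the group means were reduced to principal components, of which the first held 49.5% and the second 32.6% of the variance. On the first, 59 members had positive and 13 negative loadings. Ndufs7 (0.27), Cox8a (0.26), Atp5f1d (0.24) and Ndufb2 (0.24) weighed most, and the loadings on the other side were small, at most -0.07 for Uqcrb. Atp5mc2 (0.12) and Atp5mc3 (0.03) had the same sign here. The libraries at its low end were disease 6, RYGB 3 and healthy control 1, and disease 3 was at its high end. Because group means were taken out first, the components can only describe differences between libraries inside groups and say nothing of differences between groups.
Uqcrb, Ndufa12, Uqcrb.1, Ndufa5 and Cox6c weighed most on the second component, on which 60 members shared their sign and 12, among them Cox8a, had the opposite one, and its ends were disease 1 and disease 5. Uqcrb had 7639 normalised reads in disease 1 and 2297 in disease 5, whereas Cox8a had 5444 and 8767. Within-group SDs on the log2 scale were smallest for Ndufs4 (0.14), Atp5pf (0.15) and Ndufv1 (0.15).

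Several members belong to pairs or triplets of alternative isoforms, and the forms of other tissues were near 0 in cortex. For complex IV, Cox6a1 had 6793 to 12296 normalised reads over the 18 libraries and the muscle form Cox6a2 0 to 7.36. Cox6b1 had 2144 to 4117 and the testis form Cox6b2 1.70 to 19.6, and Cox8a had 4072 to 12329 and the muscle form Cox8b 2.49 to 21.0.
Cox7a1, the form of heart and skeletal muscle, had 0, 6.21 and 18.6 in healthy control, 8.49, 14.2 and 21.6 in disease and 8.38, 9.91 and 14.2 in RYGB. Its fold change in disease was 1.28 ± 0.49 (adjusted p = 0.293), on so few reads that single reads move it. The striated muscle marker Tnnt2 rose in disease (2.07 on the log2 scale, adjusted p = 0.00287) and fell after RYGB (by 1.52, adjusted p = 0.0187), also at low values, from 2.40 to 44.8 normalised reads over all libraries. Myh7, the other striated muscle marker that passed the filter, was at -0.46 in disease and -0.33 in RYGB against disease and was not called in either. The 5 striated muscle markers together summed to 28.1 to 63.8 in healthy control, 38.3 to 84.7 in disease and 20.3 to 62.3 in RYGB, with Myh6, Actn2 and Ckm below the filter. Their part in the Cox7a1 values was not tested.

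Ndufa4, grouped here by its symbol with complex I although it is now known to bind complex IV, had 9294 to 17132 normalised reads. Its paralogue Ndufa4l2, which is induced by low oxygen in many cells, had 8.82 to 31.1. Ndufa4l2 gave -0.51 ± 0.27 in RYGB against disease (adjusted p = 0.279) and -0.61 ± 0.27 in RYGB against healthy control (adjusted p = 0.163), with 3 RYGB libraries below all others in each comparison.
Low values of some essential subunits are doubtful as levels. Ndufs6 had 12.9 to 32.4 normalised reads, Atp5md 16.8 to 87.2 and Atp5pb 0 to 4.98, although each is a part of the assembled complex. RefSeq GRCr8 lists 83 pseudogene entries named after 33 of the members, and reads that aligned to several places (13.5 to 18.1% of counted reads) were given to no gene. Whether Ndufs6, Atp5md or Atp5pb is among the 33 is not given here, and the reads were counted on another build, Rnor_5.0. The part of such reads in the low values was not tested, and counts of members with pseudogenes are uncertain.

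Genes that build or feed the chain gave medians of the same sign as the members in disease, except biogenesis regulators and mitophagy genes. The 3 subunits outside the symbol rule (Cox4i1, Cox4i2 and Ndufab1) had no call. Cox4i1, a regulatory subunit of complex IV, had 10537 to 14306 normalised reads in healthy control and 14543 to 20043 in RYGB, with no overlap (0.37 ± 0.15, adjusted p = 0.127). Of 12 complex I assembly factors and 25 assembly factors of complexes II to V none was called in any comparison by limma. Their medians were 0.11 and 0.06 in disease and -0.18 and -0.06 in RYGB against disease. At an unadjusted p below 0.05, the complex I factors had 2 genes higher in disease and 3 lower in RYGB against disease, and the other factors 0 and 1. Over all genes these shares were 5.19% higher and 5.89% lower in disease, and 9.54% lower in RYGB against disease. Protein import (25 tested, medians 0.10 and -0.05) and the tricarboxylic acid cycle (15 tested, 0.11 and -0.11) had no call either. At an unadjusted p below 0.05, the import list had 3 genes higher in disease and 4 lower in RYGB against disease, and the cycle list 1 lower in disease and 2 lower in RYGB against disease.

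Of 68 mitochondrial ribosomal proteins tested, 66 were above 0 in disease with none called (median 0.17). Against disease, RYGB was above 0 for 35 of them, with a median of 0.0028, where the members' median was -0.16. Among them Mrpl13 fell (-0.39 ± 0.10, adjusted p = 0.0280), and against healthy control Mrpl52 rose (0.50 ± 0.13, adjusted p = 0.0328). In RYGB against healthy control 50 of the 68 were above 0 (median 0.14), where the members' median was -0.02. At an unadjusted p below 0.05, 19 were higher and 1 lower there, against 14.4% and 11.8% of all genes.
Among 17 biogenesis regulators, Polg2, the accessory subunit of the mitochondrial DNA polymerase, had 351.5 to 588.3 normalised reads in disease and 639.9 to 806 in RYGB and rose by 0.62 ± 0.17 (adjusted p = 0.0416) with no overlap. Tfam, which packs and transcribes mitochondrial DNA, gave 0.12 ± 0.10 in disease (adjusted p = 0.725) and -0.17 ± 0.10 in RYGB against disease (adjusted p = 0.370). Among 14 antioxidant and uncoupling genes, Slc25a4, an ATP/ADP carrier of the inner membrane, fell after RYGB against disease (-0.43 ± 0.12, adjusted p = 0.0493). Among 9 genes of mitophagy and dynamics, Pink1, a kinase that marks damaged mitochondria, was higher in RYGB than in healthy control (0.51 ± 0.14, adjusted p = 0.0438).

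Cytosolic ribosomal proteins, a set of short and abundant transcripts outside mitochondria, moved apart from the members in the RYGB comparisons but not in disease. In disease against healthy control, 55 of 64 were above 0 (median 0.09) with none called, where the members' median was 0.13. Of 64 tested, 2 rose in RYGB against disease and 18 against healthy control, with medians of 0.28 and 0.35, and none fell. Their library medians were 0.17 to 0.34 in RYGB and -0.37 to 0.15 in disease, and in healthy control 0.26 in library 4 but -0.29 to -0.19 in the other 5. Rpl26 had 2346 to 4916 normalised reads in disease and 5095 to 6701 in RYGB (0.69 ± 0.15, adjusted p = 0.0152). Whether what moves these transcripts has a part in the values of the members was not tested.

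**Figure D5:**
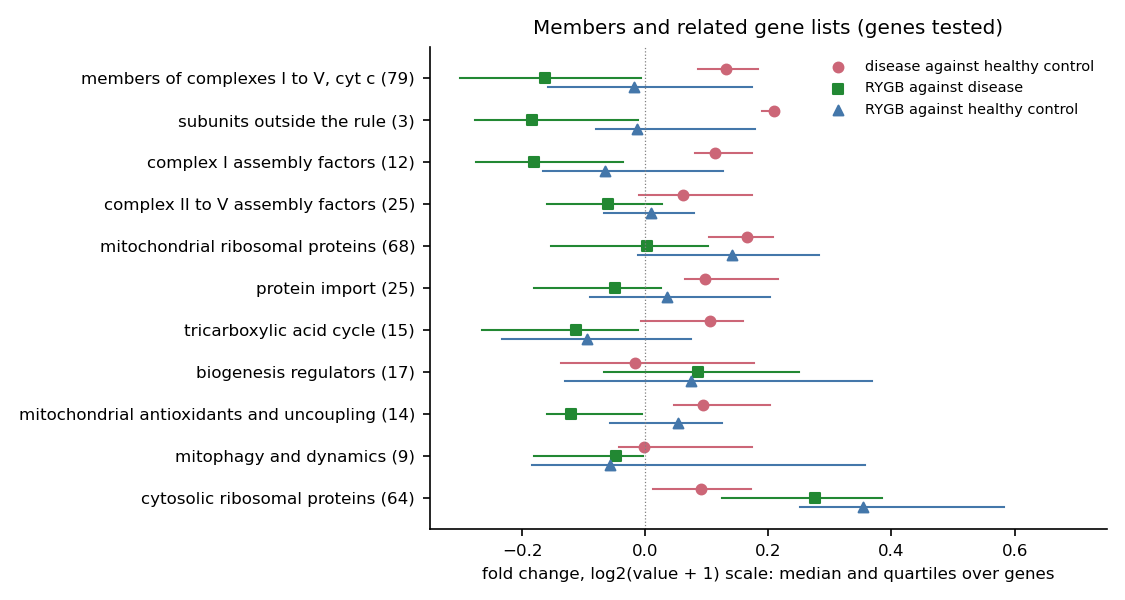
Markers are the median fold change of a gene list on the log2(value + 1) scale in each comparison, lines run from the lower to the upper quartile over genes, and the number of genes tested is in brackets. The members lie above 0 in disease and below 0 in RYGB against disease, while cytosolic ribosomal proteins lie furthest to the right in both RYGB comparisons.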

How the data were processed

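Kidney cortex RNA of 18 libraries was analysed, 6 in each of 3 groups taken from the sample labels. Per the labels' protocols, frozen cortex was extracted on a silica column and libraries were made from polyadenylated RNA with a stranded kit. The values deposited by the authors are a signal: the reads of a gene over a size factor of its library. Per the submitters' processing notes, FastQC 0.11.2, MultiQC 0.9, HTSeq 0.6.1p1 and DESeq2 were used with build Rnor_5.0, and aligner and annotation are not given in the sources. Of 18423 rows, 3 name no gene (27.6 to 43.2% of counted reads lay outside genes, 13.5 to 18.1% had several alignments and 0.0695 to 0.114% were ambiguous) and were left out. Multiplied back, at least 99.9946% of the values in each library came within 0.01 of a whole read. The libraries of a group differed beyond sampling noise (chi-square per degree of freedom at least 21.4).

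The test was limma 3.58.1 (R 4.3.3) with trended variances on log2(value + 1) of the 13988 genes reaching 10 in 6 libraries or more, in 1 fit of 3 group means (15 residual degrees of freedom). Two-sided p-values were adjusted over all genes tested by Benjamini-Hochberg, with calls at 0.05. Fold changes are given on this log2(value + 1) scale, which understates those of low genes. The script was tested on simulated data for disease against healthy control. It called 0% of 1.2-fold, 30% of 1.5-fold, 84% of 2-fold and 100% of 4-fold changes. The simulation fitted only these 2 groups and drew each gene independently, whereas the test fitted all 3 groups and members vary together. Its shares are therefore only a rough guide. By that guide a change as small as that of the median member would rarely be called, and a missing call does not show that there was none. Alternatives were edgeR 4.0.16 and DESeq2 1.42.0 on the recovered reads, quantile and TMM rescaling, pseudocounts of 0.5 and 5, no filter or a minimum of 50, the compared groups alone, a replicate block, leaving out each library and, chosen after seeing the data, leaving out the 2 libraries of lowest depth and a block within healthy control and disease.

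Same-numbered libraries of healthy control and disease deviated together over genes (correlations 0.131 to 0.325, although in 3 of 6 pairs a library of another number correlated more, at 0.382, 0.389 and 0.301), so they were treated as paired in an added fit, on the evidence of the data and not of the labels. For RYGB they did not (-0.557 to 0.309 with disease, -0.310 to 0.0142 with healthy control).

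The members, gene lists and tests were chosen with earlier results of these data known. By rule, the text names called members or those of lowest p, the extremes of each complex, core catalytic subunits, alternative isoforms and, of each related list, called genes or the most abundant. Other members named (among them Atp5mc1, Ndufa5, Ndufb2, Ndufc1 and Ndufs8) and Polg2, Cox4i1 or Tfam as examples were in part chosen after their values were seen. The values of 1 member named by the rule are not reported here. Sequences and gene names are from RefSeq GRCr8. Its build differs from that of the counts, and it was used for promoters and names only.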

Additional observations from a re-analysis of the deposited data

Results flagged for a closer look

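Single libraries stood apart within their group for 5 of the named members, when the gap to the nearest other library was set against the range of the group (Dixon's criterion for groups of 6). With 138 groups searched, about 1 in 20, or 6.9, would pass by chance.

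Atp5i, subunit e of ATP synthase, was high in disease 1 at 7529 normalised reads, against 4053 to 5172 in the other 5 disease libraries. Atp5pf, coupling factor 6, was high in RYGB 6 at 6059, against 4952 to 5276. Cyc1, the cytochrome subunit of complex III, was low in RYGB 3 at 4151, against 6242 to 7429. Ndufs6, a zinc-binding subunit of complex I, was high in RYGB 6 at 25.2, with the lowest of the others at 15.3. Cox7a1, the muscle form of a complex IV subunit, was high in RYGB 3 at 14.2, against 8.38 to 10.5. The last 2 rest on few reads.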

How the results depend on the processing

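Median fold changes of the members moved by less than the spread between libraries (a pooled SD of 0.16) in all 88 alternative values. The medians themselves were 0.13, -0.16 and -0.02, so they could come near 0 within that spread. This criterion therefore cannot show that they were stable. The sign held in all 30 for disease against healthy control and all 29 for RYGB against disease, but turned in 3 of 29 for RYGB against healthy control (without healthy control 6, RYGB 2 or RYGB 3), where the median was near 0. Leaving out 1 library gave 0.08 to 0.19 for disease against healthy control, -0.22 to -0.11 for RYGB against disease and -0.07 to 0.0061 for RYGB against healthy control. For each of the counts below, the cause of a shift was not tested. The share of all genes called in each alternative is not given here, so no count can be read as particular to the members.

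Members called in disease against healthy control were 0 throughout, except 1 (Cycs, lower) with the 2 libraries of lowest depth left out. In RYGB against disease (2 called) there were 0 with the compared groups alone, 0 without the 2 libraries of lowest depth, 1 with no filter, 1 with TMM, 3 with edgeR, 8 with DESeq2 and 11 with quantile normalisation. Leaving out 1 library gave 0 to 13, with 13 without disease 5 and 3 without disease 3 or RYGB 3. It gave 0 or 1 without any other library except healthy control 1 or 4. Atp5mc2 was called higher without disease 3 or RYGB 3, and every other call in this comparison was lower. In RYGB against healthy control (1 called) there were 3 without the libraries of lowest depth and 4 with quantile normalisation. DESeq2 gave 6 and the groups alone 7, with Atp5mc2 and Ndufa11 higher and the rest lower in each. Leaving out 1 library gave 0 to 6. The 6 without RYGB 3 were Cycs, lower, and Ndufa7, Atp5f1d, Atp5mc2, Ndufs8 and Ndufa11, higher.

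The replicate block gave 0 members in RYGB against disease, and changed no other count of members. Restricting the block to healthy control and disease left the members at 0 and moved related genes called from 0 to 1. With the replicate block related genes called in RYGB against disease went from 5 to 2.

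Related genes called in disease against healthy control (0) were 1 with the groups alone, 1 without the libraries of lowest depth, 1 with quantile normalisation, 2 with DESeq2 and 0 to 2 with 1 library left out. In RYGB against disease (5) they were 2 with the groups alone, 18 with DESeq2 and 1 to 14 with 1 library left out. In RYGB against healthy control (20) they were 42, 45 and 54 with the groups alone, DESeq2 and without the libraries of lowest depth, and 3 to 57 with 1 library left out (57 without healthy control 4).

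When 1 library was left out, the fold change turned sign for 17 of 79 members in disease against healthy control, 16 in RYGB against disease and 17 in RYGB against healthy control. In the first comparison these included Uqcrb (-0.12 to 0.23), Ndufs1 (-0.03 to 0.15), Cox8a (-0.13 to 0.17), Atp5mc3 (-0.03 to 0.16), Cox6b2 (-0.42 to 0.17), Cox6c (-0.0064 to 0.20), Atp5mc2 (-0.027 to 0.14), Ndufa4l2 (-0.22 to 0.047), Sdha (-0.0054 to 0.12) and Uqcrc2 (-0.037 to 0.096, and -0.046 without the libraries of lowest depth). In RYGB against disease they included Sdha (-0.13 to 0.0047), Atp5mc1 (-0.16 to 0.08) and Ndufv1 (-0.08 to 0.01), and in RYGB against healthy control Sdha (-0.04 to 0.05), Atp5f1a (-0.08 to 0.05), Atp5f1b (-0.07 to 0.03) and Sdhd (-0.055 to 0.039, with 0.0030 by edgeR and 0.0062 with TMM). Depth limits the members below 100 normalised reads.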
